A study of Mus musculus with 83 samples.

Results

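The chaperone and chaperonin genes are the 89 of 48795 genes of the count table whose mouse symbol belongs to the Hspa, Hspb, Hspd, Hspe, Hsph, Hsp90, Dnaja, Dnajb or Dnajc series, or is Tcp1, Cct2 to Cct8 or Bag1 to Bag6. Another 12 rows with a pseudogene suffix were left out. The 89 comprise 14 Hsp70-type genes (the Hspa series with Hsph1), 3 Hsp90 genes, 45 J-domain genes (4 Dnaja, 13 Dnajb and 28 Dnajc), 6 Bag genes, 9 subunit genes of the cytosolic chaperonin TRiC, the mitochondrial pair Hspd1 and Hspe1, and 8 small heat shock protein genes. The remaining 2, Hspbp1 and Hspbap1, share the Hspb prefix by name only and are not small heat shock proteins. The 8 counted as small heat shock protein genes, Hspb11 among them, were grouped by symbol and not by protein sequence.

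The study profiled the frontal cortex of male C57BL/6 mice aged 2 months (9 mice) or 22 months (12 mice). Pools of 125 neurons of 1 type were cut by laser from 14 µm sections stained for Slc17a7 (pyramidal cells, PYC), Pvalb (PV interneurons), Sst (SST interneurons) or Vip (VIP interneurons), and total RNA libraries were made with a stranded kit for picogram inputs. The 83 libraries form 8 groups: 9 young and 12 old for PYC, SST and VIP, and 8 young and 12 old for PV. The labels name no transgene or treatment, and which mouse gave which library is not recorded there. With 9 and 12 mice, libraries of different types must partly share mice, and the p-values treat them as independent.

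Each chaperone family has its own place in the folding cycle. Hsp70 proteins clamp exposed hydrophobic stretches of a client in a cycle driven by ATP; J-domain proteins deliver the client and trigger hydrolysis, while Bag proteins and the Hsp110 branch (Hsph1, Hspa4, Hspa4l) exchange the nucleotide and release it. Hsp90 acts later on kinases and receptors, TRiC folds actin and tubulin in its chamber, Hspd1 and Hspe1 do the same for mitochondrial proteins, and small heat shock proteins hold unfolded clients. In nerve terminals, Hspa8 works with Dnajc6 (auxilin) to strip clathrin from vesicles and with Dnajc5 (cysteine string protein) to maintain the release machinery.

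Library totals ran from 1.46 M to 27.2 M counts (M is 1000000), with a median of 6.99 M. A count of 3, the upper limit that a count of 0 allows, was worth 2.06 CPM (counts per M of the library total) in the smallest library and 0.110 CPM in the largest, for counting error only. The labelled types matched their markers: all 6 PYC, 5 PV, 5 SST and 5 VIP markers were higher in their own type by the test described below. The separation by PYC markers was incomplete, most of all in VIP. They summed to 2923 ± 522 CPM in VIP (SD, n = 21) and 3353 ± 620 in PYC (n = 21). The sums were 1877 ± 316 in SST (n = 21) and 1499 ± 313 in PV (n = 20). The SST markers summed to 689 ± 623 CPM in Old VIP (n = 12, median 459, highest 2071). In Young VIP they summed to 459 ± 108 CPM (n = 9, median 450). The part of SST markers in VIP age differences was not tested. In 6 libraries (2 Young VIP and 1 each of Young PYC, Young SST, Old PYC and Old VIP), mitochondrially encoded genes gave 0.215% to 2.51% of counts, against 8.31% to 17.0% in the others.

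Levels were dominated by 3 genes. In RPKM (CPM divided by exon length in kilobases, mean over 83 libraries), the constitutive Hsp70 gene Hspa8 (chr9:40800984-40810087 in GRCm38) stood at 523, the constitutive Hsp90 gene Hsp90ab1 at 435 and the inducible Hsp90 gene Hsp90aa1 at 296. They ranked 13, 16 and 27 among 21695 protein-coding genes. The next members were Dnajc6 at 47.9, the Hsp70 exchange factor Bag1 at 47.6 and the mitochondrial Hsp70 gene Hspa9 at 43.8 RPKM. The endoplasmic reticulum pair Hsp90b1 and Hspa5 stood at 34.8 and 32.1 RPKM. All 89 members together made up 0.89% of counts in PYC, 1.02% in PV, 0.97% in SST and 0.85% in VIP.

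**Figure D1:**
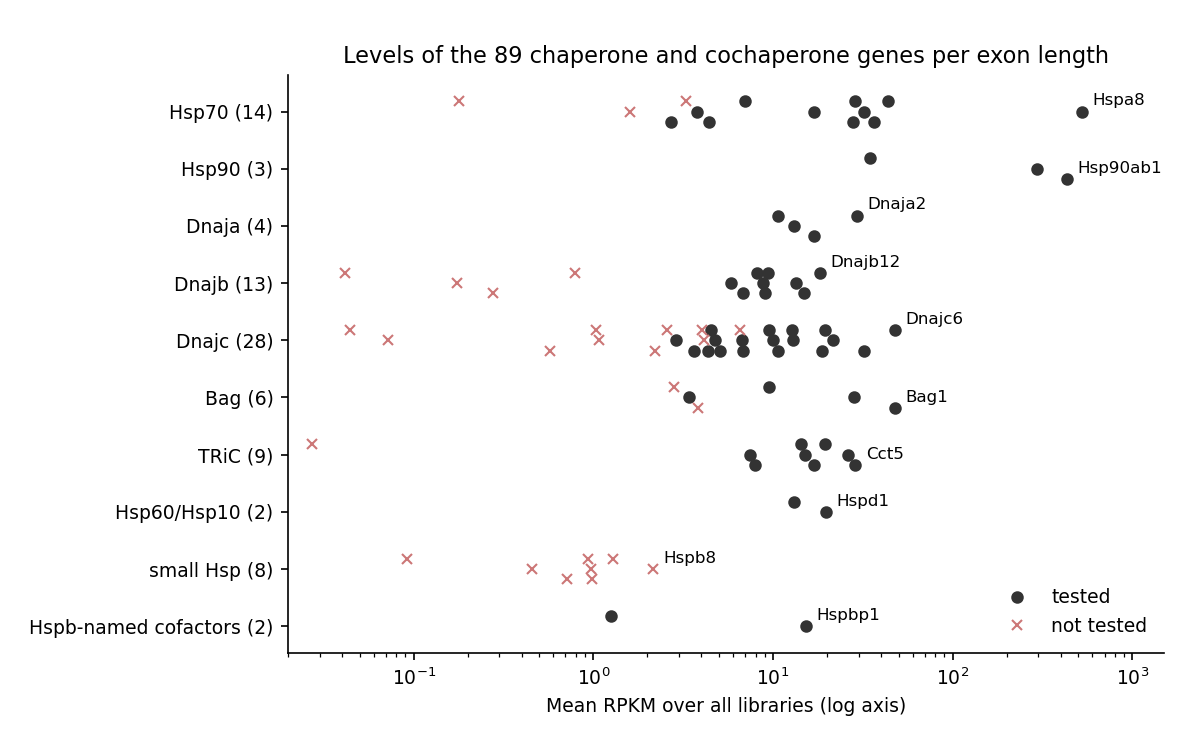
Mean RPKM over 83 libraries (log axis) of each of the 89 members, by family with the number of genes in brackets; filled points mark the 61 members abundant enough for the comparison of types, crosses the other 28, and the highest member of each family is named. Hspa8, Hsp90ab1 and Hsp90aa1 stand apart at 296 to 523 RPKM, and no small heat shock protein gene exceeded 2.14.

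Heat-inducible members spanned the whole range of levels. The 14 listed as heat-inducible summed to 5451 CPM of the 9321 CPM of all members (means over 83 libraries). The list includes Hspa8 (2249 CPM) and Hsp90ab1 (1304 CPM), named constitutive above. With Hsp90aa1 (1165 CPM) they made up most of that sum, so it does not measure inducible genes alone. Hspa1a and Hspa1b, the strictly inducible Hsp70 genes, had 3.27 and 3.75 RPKM, and Hspa8 was 74.4 times their sum. Of the small heat shock protein genes, the highest was Hspb8 at 2.14 RPKM, and Hspb1 had a count in 17 of 83 libraries. Another 10 members had counts in at most 8 libraries: Hspa1l, Cct6b, Hspb2, Hspb9, Dnajb3, Dnajb8, Dnajb13, Dnajc5b, Dnajc5g and Dnajc22. The 8 other TRiC subunit genes lay within a narrow span, from Cct3 at 7.49 to Cct5 at 28.7 RPKM. Cct6a, at 16.9 RPKM, is annotated as a processed transcript in GENCODE M21.

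Hspa1a and Hspa1b lie side by side on chromosome 17, and their coding sequences agree at 1918 of 1926 aligned bases (99.6%), so reads may be split between them and each value is uncertain. Upstream of their starts, 247 of 250 bases are identical. RefSeq promoter windows (250 bases before to 50 after a start, GRCm38.p6) were found for 73 of the 89 members, in 93 windows. Hspa8, Hsp90aa1 and Hsp90ab1 were among the members without a window, so their promoters were not searched for any element. The windows were searched on both strands for 2 alternating units bound by heat shock factor, GAANNTTC or TTCNNGAA (each is its own reverse complement). This match was in 4946 of 32851 windows (15.1%) and in 22 of the 93 member windows. The sequences below are shown because Hspa1a and Hspa1b are nearly alike and carry the match at the same position, 104 bases before the start. Capitals mark the match, and both genes are on the minus strand.
Hspa1a, chr17:34972228-34972285: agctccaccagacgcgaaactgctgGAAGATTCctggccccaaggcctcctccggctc
Hspa1b, chr17:34959310-34959367: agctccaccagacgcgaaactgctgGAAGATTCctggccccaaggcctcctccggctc

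The longer heat shock element of 3 alternating units, GAANNTTCNNGAA or its reverse complement TTCNNGAANNTTC, contains 2 overlapping copies of the shorter match. It was in 198 of 32851 windows (0.603%) and in 6 of the 93 member windows, those of Hspd1, Hspe1, Dnajb6 and Hsph1. Hspd1 and Hspe1, the chamber and the lid of the mitochondrial chaperonin, start 216 bases apart on opposite strands, so the same bases appear in both windows. They are shown because the element lies between a pair of genes whose products work together; their capitals mark 2 overlapping 3-unit matches. Dnajb6 is shown beside them as the other member with the element before its start, with a single match in capitals; in Hsph1 the match lies after the start.
Hspd1, chr1:55088034-55088101, minus strand: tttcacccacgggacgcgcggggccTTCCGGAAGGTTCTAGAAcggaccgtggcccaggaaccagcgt
Hspe1, chr1:55088034-55088101, plus strand: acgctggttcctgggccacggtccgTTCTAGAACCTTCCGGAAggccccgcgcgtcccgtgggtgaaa
Dnajb6, chr5:29735827-29735889, plus strand: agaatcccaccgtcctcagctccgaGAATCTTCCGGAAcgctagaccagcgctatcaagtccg

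The endoplasmic reticulum stress element, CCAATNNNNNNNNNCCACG on either strand, was in 39 of 32851 windows (0.119%) and in 3 member windows, those of Hspa5, Hsp90b1 and Dnajc3, which all act in that compartment. Hsp90b1 has it in 2 places, 1 on each strand. They are shown because no other member window contains the element; capitals mark it. A match is a description of the letters only.
Hspa5, chr2:34772000-34772068, plus strand: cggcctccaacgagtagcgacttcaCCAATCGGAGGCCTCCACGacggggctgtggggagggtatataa
Dnajc3, chr14:118937802-118937870, plus strand: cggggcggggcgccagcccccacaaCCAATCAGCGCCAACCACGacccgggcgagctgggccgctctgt
Hsp90b1, chr10:86705508-86705681, minus strand: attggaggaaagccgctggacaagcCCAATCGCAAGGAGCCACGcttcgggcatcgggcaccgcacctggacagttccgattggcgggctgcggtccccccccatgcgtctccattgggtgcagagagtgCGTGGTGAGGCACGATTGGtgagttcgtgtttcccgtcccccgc

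The first comparison asked which members differ between the 4 neuron types. Each type was contrasted with the average of the remaining 3, with both ages weighted equally, in a single edgeR quasi-likelihood fit of all 8 groups. Genes entered when they passed edgeR's abundance filter and lay at or above the median abundance, which left 9604 genes and 61 of the 89 members. A gene was called at a Benjamini-Hochberg adjusted p under 0.05, and fold changes are log2 ± SE. The 4 contrasts share their libraries, so a gene high in 1 type is pushed down in the others. In such pools, fewer cells of a type and less RNA per cell cannot be told apart.

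PV neurons had the most called members. Of 61 tested, 13 (21.3%) were higher and 1 was lower, against 11.1% and 11.6% of all genes tested. The median difference of the members was 0.23 on the log2 scale, against -0.02 for all genes, and 43 of 61 were above 0. The 13 were the Hsp70-type genes Hspa8, Hspa9, Hspa4l and Hspa12a, the J-domain genes Dnaja1, Dnaja2, Dnaja3, Dnajb14, Dnajc15, Dnajc18 and Dnajc27, the TRiC subunit gene Cct8, and Hsp90aa1. In PV libraries the 4 GABAergic markers also had their highest sum, 3434 ± 342 CPM (n = 20), and the PYC markers their lowest; their part in these differences was not tested.

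Hspa4l (chr3:40744495-40796103), an Hsp110-type exchange factor, ran from 166 to 407 CPM in PV with a median of 308. The medians were 150 in PYC (68.0 to 291), 170 in SST (41.5 to 317) and 137 in VIP (66.2 to 372). All 20 PV libraries lay above the median of the other libraries, though the ranges overlapped. The fitted difference was 0.92 ± 0.14, or 1.89-fold (edgeR adjusted p = 2.55e-08). It was nearly as large within each age, at 0.90 ± 0.16 in the old libraries alone and 0.93 ± 0.23 in the young alone.

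Hspa9, the Hsp70 of the mitochondrial matrix that pulls imported proteins through the inner membrane, had a median of 269 CPM in PV (105 to 354). Its medians were 138 CPM in PYC (88.1 to 244), 174 in SST (77.8 to 305) and 141 in VIP (51.1 to 331). PV was thus highest and 18 of 20 PV libraries exceeded the median of the others, with wide overlap. The difference was 0.74 ± 0.12 (edgeR adjusted p = 5.80e-07).

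All 7 tested members of the mitochondrial list were above 0 there, with a median of 0.66 against -0.02 for all genes, and 3 passed, where 11.1% of all genes were higher: Hspa9, its J-domain partner Dnaja3 (0.72 ± 0.24, edgeR adjusted p = 0.0196) and Dnajc15, which sits at the import channel (1.12 ± 0.34, edgeR adjusted p = 0.00787). Hspd1 (0.48 ± 0.24) and Hspe1 (0.66 ± 0.39) did not pass, at edgeR adjusted p = 0.149 and 0.243. The summed level of the 9 listed genes was 564 ± 97.8 CPM in PV (n = 20), 391 ± 90.9 in SST (n = 21), 373 ± 94.5 in VIP (n = 21) and 330 ± 80.4 in PYC (n = 21). The Dnaja3 call was lost when Young PV replicate 5 was left out (0.56).

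Hspa12a (chr19:58795750-58943654), a divergent Hsp70 with an atypical ATPase domain, had a median of 353 CPM in PV (174 to 512). Its medians were 237 in PYC (132 to 542), 262 in SST (133 to 310.2) and 191 in VIP (44.6 to 344). PV was the highest and VIP the lowest type, with overlapping ranges. The PV difference was 0.68 ± 0.11 (edgeR adjusted p = 3.50e-07) and the VIP difference -0.54 ± 0.12 (edgeR adjusted p = 0.000233). The VIP difference was -0.80 ± 0.20 in the young libraries alone and -0.26 ± 0.13, not called, in the old alone.

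Hspa8 showed a small difference with little scatter. PV libraries ran from 1989 to 3188 CPM (median 2705) and SST libraries from 1663 to 3734 (median 2295). PYC ran from 1451 to 2801 (median 2013) and VIP from 1472 to 2899 (median 1980). In PV, 19 of 20 libraries lay above the median of the others, and in VIP 19 of 21 lay below it. The differences were 0.37 ± 0.05 in PV (edgeR adjusted p = 2.32e-08), -0.26 ± 0.06 in VIP (edgeR adjusted p = 0.000199) and -0.17 ± 0.06 in PYC (edgeR adjusted p = 0.0195). The PYC call was lost without the 6 libraries of low mitochondrial share (-0.14) and without Young PYC replicate 5 (-0.15).

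**Figure D2:**
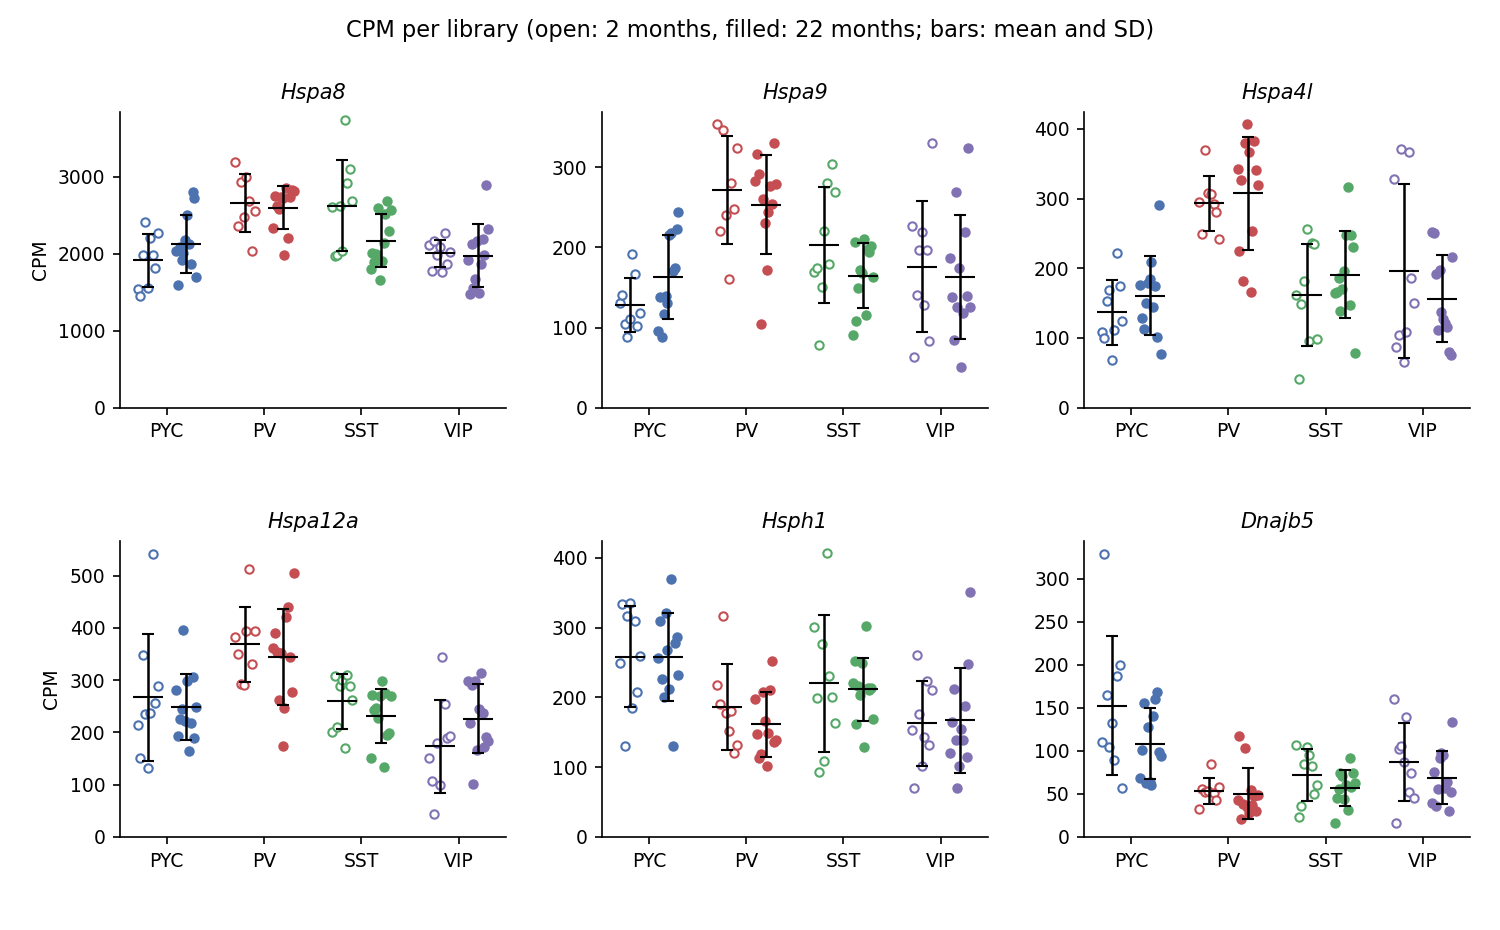
CPM of 6 members in each of the 83 libraries, by neuron type and age (open circles 2 months, filled circles 22 months; bars are mean and SD). Hspa8, Hspa9, Hspa4l and Hspa12a have their highest mean over both ages in PV, whereas Hsph1 and Dnajb5 have theirs in PYC, and the ranges of the types overlap for all 6.

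Among the remaining PV members, the difference was 0.70 ± 0.16 for Dnajc27, a small GTPase fused to a J domain, and 0.71 ± 0.17 for Dnajc18. The class A J-domain genes Dnaja1 (0.47 ± 0.14) and Dnaja2 (0.48 ± 0.14), general partners of Hspa8, passed as well. Cct8, one subunit of the 8-membered TRiC ring, was higher by 0.74 ± 0.21 (edgeR adjusted p = 0.00418). It was the only TRiC subunit of the 8 tested that passed in any type. In the young libraries alone its PV difference was 1.18 ± 0.33, and in the old alone 0.28 ± 0.26, not called. Dnajb5 was the 1 member lower in PV (-0.66 ± 0.18, edgeR adjusted p = 0.00359).

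In pyramidal cells, 3 of 61 members (4.92%) were higher and 5 (8.20%) lower, against 9.14% and 7.5% of all genes tested. The median difference was -0.01, against -0.03 for all genes. Dnajb5 (chr4:42949814-42959425), a class B J-domain gene, gave the largest difference among the 8 called, 1.06 ± 0.16 or 2.08-fold (edgeR adjusted p = 8.89e-08). Its libraries ran from 57.4 to 329 CPM in PYC (median 110), 21.2 to 117 in PV (median 48.0), 16.0 to 107 in SST (median 60.9) and 16.0 to 160.2 in VIP (median 73.9). All 21 PYC libraries exceeded the median of the others, and the highest value came from Young PYC replicate 2, 1 of the 6 libraries of low mitochondrial share. Without those 6 the difference was 0.96.

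The other 2 members higher in PYC were Hsph1 and Dnajc6. Hsph1 (chr5:149614287-149636376), the Hsp110 disaggregase partner, had medians of 260.1 CPM in PYC (130 to 369), 213 in SST (93.7 to 407), 159 in PV (101 to 316) and 153 in VIP (69.6 to 351). It was higher in PYC by 0.54 ± 0.12 (edgeR adjusted p = 0.000120) and lower in VIP by -0.41 ± 0.12 (edgeR adjusted p = 0.0120). Hsph1 and Hspa4l, both of the Hsp110 branch, were therefore highest in different types, whereas the branch's other gene, Hspa4, was called in none. The summed level of 10 immediate early genes was also highest in PYC, at 465 ± 236 CPM (n = 21), against 148 ± 55.8 in PV (n = 20); its part was not tested.

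The 5 members lower in PYC were the mitochondrial genes Hspa9 (-0.44 ± 0.13) and Dnajc11 (-0.68 ± 0.22), Hspa4l (-0.48 ± 0.14), Dnajc27 (-0.49 ± 0.17) and Hspa8. Dnajc11 belongs to the complex that shapes the inner mitochondrial folds. The Dnajc27 call was lost when any 1 of 7 libraries was left out: Young PYC replicates 1, 2, 3, 7 and 8, Old PYC replicate 11 or Young SST replicate 3. The difference was then between -0.46 and -0.41.

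In VIP neurons no member was higher and 6 of 61 (9.84%) were lower, against 7.0% and 5.53% of all genes tested. At an unadjusted p under 0.05 edgeR gave 1 higher, Hspa1b, and 10 lower, while DESeq2 called 1 higher and limma-voom 0. Of all 9604 genes, 1185 were higher and 971 lower at that unadjusted p. DESeq2 called 817 of all genes higher and limma-voom 749. The median was -0.16, against 0.03 for all genes, and 48 of 61 members lay below 0. The 6 were Hspa8, Hspa12a and Hsph1, Hsp90aa1 (-0.28 ± 0.07), Dnajc5 (-0.36 ± 0.09) and Dnajc6 (-0.29 ± 0.08). Of the 5 genes listed as synaptic or clathrin-coat chaperones, 3 were lower in VIP: Hspa8 and its partners Dnajc5 and Dnajc6. Dnajc6 is the clathrin-uncoating partner, with a median of 246 CPM in VIP (143 to 372) against 327 in PYC (240 to 447), where it was higher by 0.31 ± 0.08. The VIP call for Dnajc6 was lost without the 6 low mitochondrial libraries (-0.22). The PYC markers were second highest in VIP, as given above, and their part was not tested.

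In SST neurons no member passed in either direction, against 4.48% of genes higher and 3.11% lower. At an unadjusted p under 0.05 there were 3 higher and 4 lower by edgeR, while DESeq2 called 1 lower and limma-voom 3 higher. Of all 9604 genes, 842 were higher and 683 lower at that unadjusted p, DESeq2 called 388 lower and limma-voom 763 higher, so the members' shares were no larger than those of all genes. The median was 0.01, against 0.02 for all genes. Hsp90aa1, the inducible Hsp90, had its highest mean in SST at 1295 ± 321 CPM (n = 21), followed by 1267 ± 282 in PV (n = 20), 1091 ± 227 in PYC (n = 21) and 1014 ± 207 in VIP (n = 21). The first pair differed by less than its spread. Hsp90ab1 was called in no type, with differences from -0.07 to 0.09, and the reticulum pair Hspa5 and Hsp90b1 was called in none either.

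**Figure D3:**
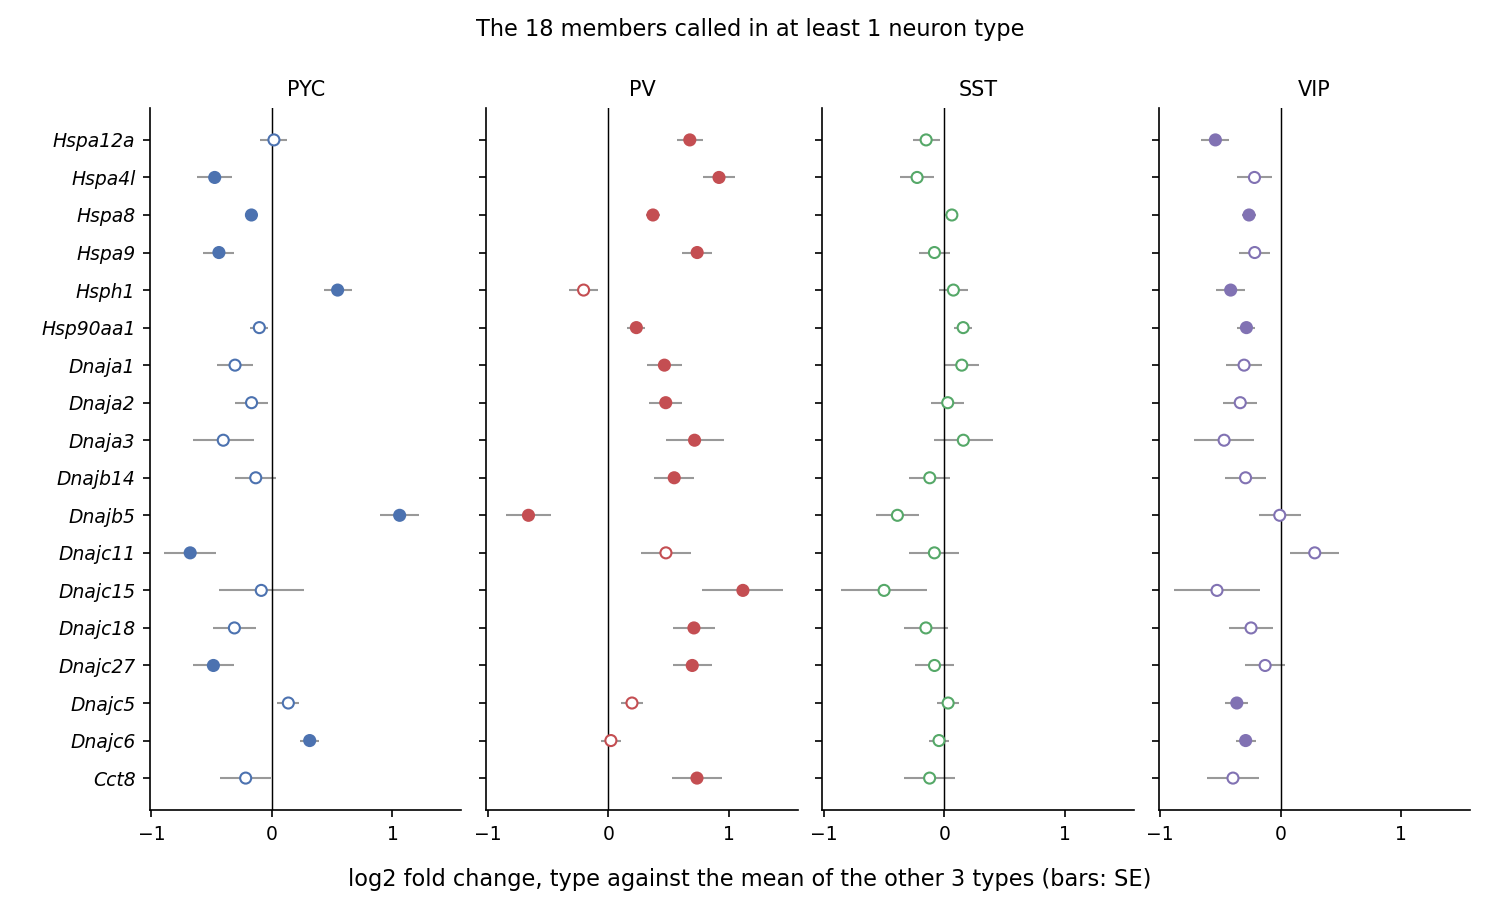
Log2 fold change of each neuron type relative to the remaining 3 (x axis, bars are SE) for the 18 members called in at least 1 type; filled points passed at an edgeR adjusted p under 0.05. PV holds 13 of the filled points above 0, and VIP 6 below 0.

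Bag3 is the exchange factor of chaperone-assisted autophagy, and Hspb8 is the small heat shock protein it binds. Both lay under the median abundance and were left out of the comparison of types described above. An alternative run with the abundance filter alone included them but is not used here. Their levels are a description. Bag3 (chr7:128523616-128546981) had a count in all 20 PV libraries, 19 of 21 SST, 10 of 21 VIP and 8 of 21 PYC libraries. It ran from 2.99 to 62.2 CPM in PV (median 19.9), while the medians were 5.13 in SST and 0 in VIP and PYC. PV was thus the type with the highest median, and its range overlapped those of the others.

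Hspb8 (chr5:116408491-116422864) had a count in 19 of 20 PV libraries and in 10 of 21 libraries of each other type. Its PV libraries ran from 0 to 51.1 CPM with a median of 5.61, and the medians of the other types were 0. The ranges overlapped here too. Both genes had a count in 19 PV libraries, against 4 in PYC, 9 in SST and 6 in VIP. Across the 83 libraries their deviations from the group means correlated with r = 0.26, a description only.

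The inducible Hsp70 pair had its highest medians in VIP. Hspa1b ran from 1.29 to 58.1 CPM in VIP (median 10.2), 0.28 to 33.0 in PYC (median 7.61), 0 to 23.9 in SST (median 6.50) and 0.27 to 17.9 in PV (median 4.20). Its VIP difference, 1.18 ± 0.42, missed at edgeR adjusted p = 0.0509, and it passed in 27 of 83 fits that each left out 1 library. Hspa1a, under the median abundance, was left out of the comparison of types, as Bag3 and Hspb8 were. The Hspa1a medians were 12.3 CPM in VIP, 6.13 in PV, 4.53 in SST and 4.40 in PYC. The libraries of low mitochondrial share were not uniform for the pair. Hspa1b averaged 51.9 CPM in the 2 Young VIP libraries against 16.9 ± 13.4 in the other 7, and was 33.0 in the Young PYC library against 9.72 ± 6.02 in the other 8. It was 17.7 in the Old PYC library against 8.05 ± 6.99, 18.3 in the Old VIP library against 12.0 ± 12.8, and lower, at 2.87, in the Young SST library against 8.24 ± 9.54. For Hspa1a the Young PYC library gave 36.3 CPM against 7.99 ± 5.46, the Old PYC library 13.2 against 4.38 ± 5.11, and the Young SST library 2.61 against 3.91 ± 4.33. In VIP, Hspa1a was 29.1 against 20.8 ± 18.03 in young and 15.1 against 12.4 ± 9.80 in old libraries. The fit of all groups was also run without the libraries of low mitochondrial share, but its Hspa1b difference is not given here. No other test of their part in the VIP values was made.

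**Figure D4:**
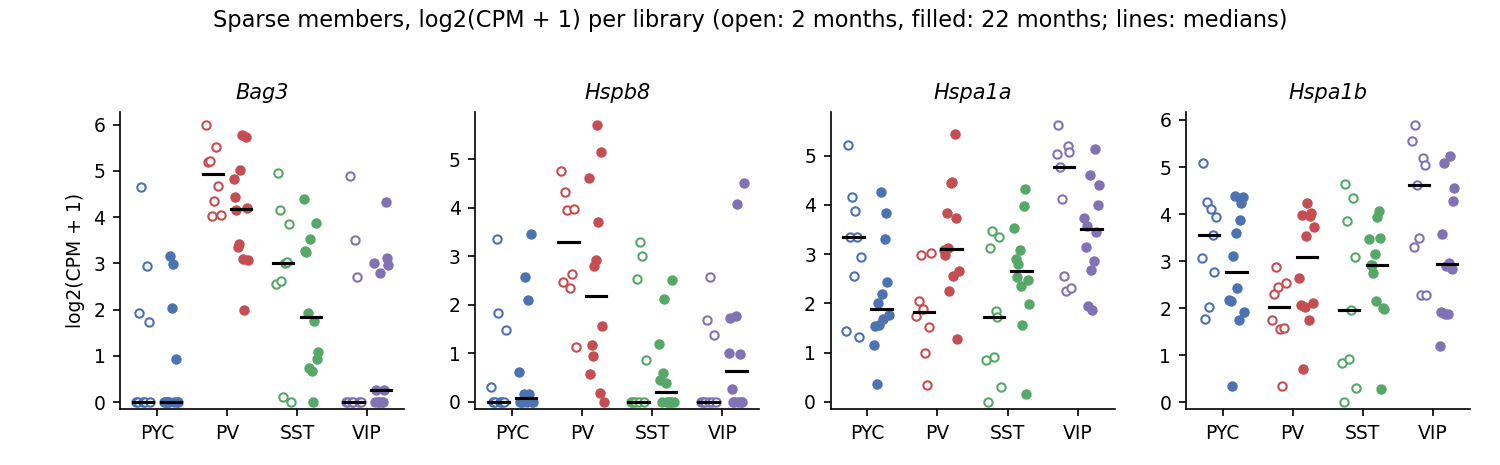
Log2(CPM + 1) of Bag3, Hspb8, Hspa1a and Hspa1b in each of the 83 libraries by neuron type and age (open circles 2 months, filled circles 22 months; lines are group medians). All 20 PV libraries have Bag3 counts, whereas most PYC libraries sit at 0, and Hspa1a and Hspa1b spread widely in every type.

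Members that were high in the same libraries were sought from the deviations of log2 CPM from the group mean over 83 libraries, which share depth. The median r over the 1830 pairs of the 61 tested members was 0.06. Hspa8 went with Hsp90ab1 (r = 0.53) and Hsp90aa1 (r = 0.51), and the 2 Hsp90 genes with each other (r = 0.49). Values near the last were not confined to these genes: Dnajc2 with Hsp90aa1 reached r = 0.49 and Dnajc13 with Dnajc3 r = 0.48. Hspa1a and Hspa1b reached r = 0.66, with the caution on shared reads given above. Hspd1 and Hspe1, which share an upstream region, reached r = 0.18, and Hspa5 and Hsp90b1, which both carry the stress element, r = -0.09. Their median levels were 16.0 CPM for Hspe1, 47.9 for Hspd1, 132 for Hspa5 and 143 for Hsp90b1, against 2166 for Hspa8. The part of counting error in these r was not tested.

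Outside the 89 members, a list of 46 other genes of the pathway gave 44 tested genes. In PV 4 were higher, a smaller share than the 11.1% of all genes, and none lower: the Hsp70 to Hsp90 adaptor Stip1 (0.53 ± 0.15), the mitochondrial Hsp90 Trap1 (0.61 ± 0.19), the cochaperone Sgtb (0.50 ± 0.16) and the Hsp90 immunophilin Fkbp4 (0.39 ± 0.15). In PYC, against 9.14% higher and 7.5% lower among all genes, 1 was higher (Ppp5c, 0.48 ± 0.17) and 3 lower, Fkbp4 (-0.68 ± 0.16), Unc45a (-0.87 ± 0.30) and the reticulum lectin Canx (-0.26 ± 0.10). In VIP 1 was lower, Sgtb (-0.65 ± 0.17), and in SST none passed. The median PV difference of the list was 0.05.

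The second comparison asked whether members differ between 22 and 2 months within each type. Here genes passed the abundance filter within the type, leaving 70 members in PYC, 74 in PV, 72 in SST and 69 in VIP. No member passed an edgeR adjusted p under 0.05 in any type, nor by DESeq2 or limma-voom, and with edgeR neither did any other gene (0.0% of 12508, 12564, 12805 and 12337 genes). At an unadjusted p under 0.05, edgeR gave 1 member in PYC (2.91% of all genes), 4 in PV (2.32%), 1 in SST (2.87%) and 3 in VIP (2.98%). The median member difference, old minus young, was 0.06 in PYC, -0.03 in PV, -0.03 in SST and 0.01 in VIP.

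Cct8 had the smallest unadjusted p. Young PV libraries ran from 68.0 to 138 CPM (median 119.5) and old PV libraries from 33.2 to 102 (median 55.3), so the groups overlapped with the young higher. The difference was -0.80 ± 0.25 (edgeR unadjusted p = 0.00245), and it did not pass the adjustment. In the other types Cct8 medians were close between ages: 40.1 young and 52.4 old in PYC, 53.4 and 45.7 in SST, and 41.2 and 36.3 in VIP. PV also gave Dnajc13, an endosomal J-domain protein (0.58 ± 0.26), Dnajc11 (0.65 ± 0.30) and Hsp90ab1 (0.20 ± 0.10).

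Dnajc2, a J-domain protein of the ribosome-associated complex, had age differences of opposite sign in PYC and VIP. Its median was 63.1 CPM in Young PYC (3.27 to 135) and 31.2 in Old PYC (5.74 to 59.9), a difference of -0.94 ± 0.42 (edgeR unadjusted p = 0.0316). In VIP the median was 28.5 CPM in young (0.24 to 87.2) and 51.4 in old (1.11 to 186), a difference of 1.26 ± 0.58 (edgeR unadjusted p = 0.0369). The groups overlapped in both types, and neither difference passed the adjustment.

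Hspa8 in SST had a young median of 2617 CPM (1969 to 3734) and an old median of 2073 (1663 to 2684), with overlap. The difference was -0.26 ± 0.10 (edgeR unadjusted p = 0.0123) and did not pass the adjustment. In VIP, Dnajc21, a ribosome-biogenesis J-domain protein, ran from 35.6 to 114 CPM in young (median 50.8) and from 2.93 to 50.01 in old (median 24.3), a difference of -1.37 ± 0.48 (edgeR unadjusted p = 0.0066). Dnajc8, a splicing-associated member, gave -0.79 ± 0.39 in VIP.

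**Figure D5:**
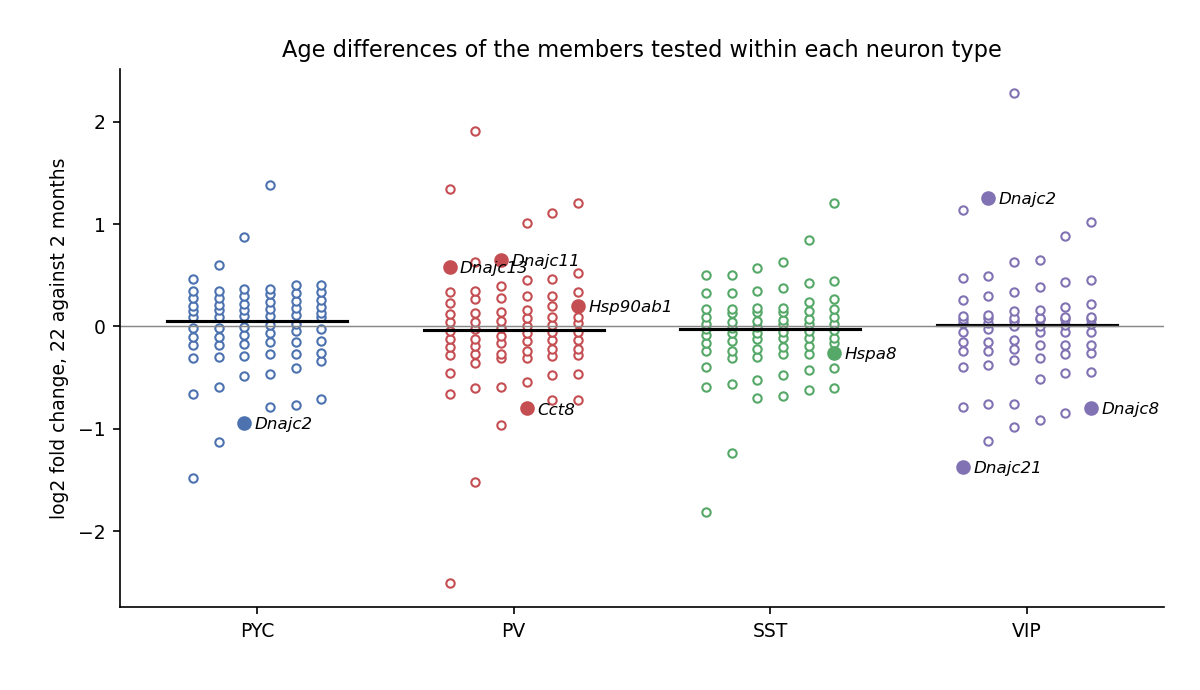
Log2 fold change of 22 against 2 months (y axis) for every member tested within each neuron type; filled, named points had an unadjusted edgeR p under 0.05, and black lines are medians. The medians lie between -0.03 and 0.06 and no member passed the adjusted threshold.

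Averaged over the 4 types, no member or other gene passed with edgeR (0.0% of 9604 genes), and DESeq2 and limma-voom called 0 members. At an unadjusted p under 0.05, 1 of 61 members was found, Dnajc11 (0.39 ± 0.18), against 4.39% of all genes. Whether the age difference differed between types was tested by the 3 interaction terms: no member was called by edgeR or limma-voom, against 0.0104% of all genes (1 gene). Dnajc2 (edgeR unadjusted p = 0.0202) and Hspa8 (unadjusted p = 0.0323) were the 2 members under 0.05, against 2.78% of all genes, and neither passed the adjustment.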

How the data were processed

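The authors deposited raw counts per Ensembl gene for 83 libraries. The submitters' processing notes name HISAT2 and the build GRCm38. No source used here gives the counting tool, annotation release or strand setting, so overlapping and antisense genes may share reads. Symbols, exon lengths and coordinates came from GENCODE M21 (48349 of 48795 genes matched). The members, gene lists and named-gene rule (up to 8 called members per direction with the largest change in each type, for age the 4 lowest unadjusted p-values in each direction where under 0.05, up to 6 for the average and the interaction, a panel, and the extremes of each family) were chosen with earlier results of these data known. Libraries were grouped from the labels, and replicate numbers follow accession order. Counts were normalised by TMM and tested with edgeR 4.0.16 (robust quasi-likelihood F-test, 2-sided, filterByExpr minimum count 10) in R 4.3.3; CPM is per library total. Without molecular identifiers, counting error is a lower limit. The fits were also run on simulated data, whose outcome is not given here. The simulated libraries were independent, so that check does not cover mice shared between types. Alternatives were DESeq2 1.42.0, limma 3.58.1 (voom), DESeq2 size factors, other filters, the F number of the titles, library total, and libraries left out. No 2 libraries held identical counts, and nothing says they came from separate extractions, so p-values measure the spread between these libraries.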

Additional observations from a re-analysis of the deposited data

Results flagged for a closer look

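Of 24 named members, 96 groups of young libraries were small enough (8 or 9) to test for 1 library standing apart, and 12 did. A chance rate of about 1 in 20 would apply to independent groups. The same libraries recur across members here, so the 12 cannot be set against that rate. Young PYC replicate 2, which has the lowest mitochondrial share, accounted for 4: it was lowest for Dnajc10 (9.01 CPM, the others 35.7 to 104), Dnajc11 (5.71, the others 20.2 to 37.5) and Dnajc13 (13.8, the others 88.9 to 207), and highest for Hsp90ab1 (2175, the others 793 to 1290.1). Young VIP replicates 1 and 3, also of low mitochondrial share, were lowest for Dnajc13 (45.4 CPM, the others 108 to 183) and Dnajc10 (0, the others 9.09 to 96.6).

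The rest lay in libraries of ordinary mitochondrial share. Young VIP replicate 2 was lowest for Dnajc18 (3.59 CPM, the others 77.9 to 162) and Dnajc27 (27.5, the others 70.0 to 137). Young SST replicates 5, 3 and 9 were lowest for Cct7 (32.1 CPM, the others 76.4 to 147), Cct8 (12.8, the others 42.0 to 102) and Hsp90b1 (25.2, the others 92.5 to 219). Young PV replicate 5 was lowest for Dnajc2 (1.63 CPM, the others 16.7 to 51.4).

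The age difference also differed between types at an unadjusted p under 0.05 for Dnajc2 (edgeR interaction p = 0.0202) and Hspa8 (edgeR interaction p = 0.0323), neither of which passed the adjustment over 9604 genes.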

How the results depend on the processing

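Among the type differences of named members, none changed sign under any alternative run, and the 13 members higher in PV became 9 in the old libraries alone, 5 in the young alone and 18 with limma-voom. The count over all genes moved too, from 1066 of 9604 to 719 of 7351, 492 of 7739 and 1749 of 9604. In PYC the 3 higher became 1 in the young alone, and the 5 lower became 1 in the old alone, 2 in the young alone and 3 without the 6 libraries of low mitochondrial share. Over all genes, the higher went from 878 of 9604 to 422 of 7739. The lower went from 720 to 477 of 7351, 299 of 7739 and 710 of 9778. The 1 member lower in PV became 2 with DESeq2, and 0 in the old or the young alone. Over all genes the lower in PV went from 1114 to 1341, 714 of 7351 and 579 of 7739. In SST, limma-voom called 3 higher and DESeq2 1 lower, beside 763 and 388 of 9604 genes. In VIP, 1 was higher with DESeq2 (817 of 9604 genes) and 1 with its size factors (746 of 9604). With the abundance filter alone 2 were higher (1497 of 19208 genes). The 6 lower became 2 in the old and 1 in the young alone, while over all genes 531 became 235 of 7351 and 211 of 7739. Using the old or young libraries alone leaves fewer samples; for the others the cause was not tested.

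With 1 library left out at a time, counts ranged from 3 to 3 higher and 4 to 5 lower in PYC, 11 to 13 higher and 1 to 1 lower in PV, 0 to 0 higher and 0 to 1 lower in SST, and 0 to 1 higher and 6 to 7 lower in VIP. No age call appeared that way, including for the average over types and the interaction, whose runs were added after seeing the data. DESeq2 was not run for the interaction. Without any filter, age calls among members went from 0 to 6 in PYC, 6 in PV, 6 in SST and 8 in VIP, while over all genes they went from 0 to 6505 of 31951, 6355 of 30475, 5734 of 31077 and 7117 of 33218, a larger share than among the 89 members. The abundance filter alone gave 1 member with an age by type interaction, beside 601 of 19208 genes. The median step of the fit of all groups was added because calls among sparse genes in an earlier fit of these data without it were taken to be false. That earlier fit is not shown here. Whether the calls made with fewer filters are of that kind was not tested. No paired analysis was possible because replicate numbers follow accession order and the labels tie no library to a mouse. Depth limits the small heat shock genes, which are near or at 0 in most libraries.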
